A study of Sus scrofa with 24 samples.

Results

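Back-splice reads of circular RNAs (circRNAs) in the spleen of Meishan pigs at 28d and 35d after birth were compared with those at 14d and 21d. The comparison took 12 of the 24 libraries of the series, 6 pigs of 28d and 35d against 6 pigs of 14d and 21d, and all 3000 circRNAs of the deposited count table. The study followed splenic circRNAs through development, and these 4 stages are its closely spaced middle. The series sampled 3 healthy pigs at each of 8 stages from 1d to 180d, with 1 library of ribosomal RNA-depleted RNA per pig. The methods of the study add a digestion of linear RNA with RNase R that the labels do not name. Breed (Meishan) and tissue (spleen) were shared by all pigs, the pigs received no treatment that the labels name, and every stage was a different set of animals. Litter, sex and weaning are not given by the labels, so differences between ages and between litters cannot be told apart. The spleen is a mixture of cells, and in bulk RNA fewer cells of a type and fewer circRNA molecules per cell cannot be told apart.

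A circRNA forms when the splicing machinery joins the end of an exon to the start of the same or an upstream exon, a reaction called back-splicing. The closed ring has no free ends and is degraded slowly, so its level follows both the transcription of the host gene and the age and division of the cells. In the spleen of young mammals, red blood cell formation recedes while lymphocytes fill the white pulp. Reads that cross the back-splice junction count the circle and not the linear messenger RNA of the same gene, and nothing below measures the host messenger RNA.

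A back-splice junction is recognised by a sequence that does not occur in the linear transcript. The junctions of the 6 named circRNAs with the smallest p-values are printed here because the differences described below were counted on these joins. Lower case letters are the last 15 bases of the downstream end and capitals are the first 15 bases of the upstream end, in the direction of transcription, read from the RefSeq sequence of Sscrofa11.1.
NCOA7 circRNA_00572: gatattatagtattgGGTTATGACTCATTG
NSD2 circRNA_34504: ctcactgagaatgagTGCTCTGAGCACGGG
NAA15 circRNA_35658: catgagattgaaagaCATGCTGGGAATATT
circRNA_29459 inside PAWR: tgggcagctaacaagCACAACCACTGCCTC
ZNFX1 circRNA_19169: cgtctgaattaccagGTGCTGCTAAATACC
DENND4A circRNA_02640: ctcaataacagtatgTATTTCTCAAACTCT
Both ends of 2842 of the 3000 circRNAs lay within 1 base of exon ends of 1 annotated gene, which gave 1670 host genes, and all 3000 were flanked by the GT and AG splice signals. circRNA_29459 was 1 of those whose ends did not lie at annotated exon ends.

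The 12 libraries held 29718 to 56086 back-splice reads each in this table, with 5.89% of values at 0. Values above 0 began at 2 reads. In 3 of the 12 libraries (21d replicate 3 and 35d replicates 2 and 3) the share of valid bases given by the study was below 0.96. These were the libraries with the highest totals. The counts of calls, named fold changes, gene lists of the main comparison and the RPM and detection measures were therefore also computed without them. That filter left replicate 1 as the only pig of 35d. Of the host genes that mark cell types, the table held 5 of 38 B and plasma cell markers, 3 of 48 T and NK cell markers, 3 of 39 macrophage, monocyte and granulocyte markers and 2 of 38 erythroid markers. It held 0 of 18 megakaryocyte, 0 of 9 fat cell and 0 of 13 pancreas acinar markers. Most defining markers have no circRNA in the table, which therefore allows only a partial check of the tissue.

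No circRNA passed the adjusted test between 28d and 35d and 14d and 21d. In edgeR's quasi-likelihood test with Benjamini-Hochberg adjustment, 0 of 3000 circRNAs (0%) passed an adjusted p under 0.05 with a fold change of at least 2, and 0 passed the adjusted p alone, the smallest being 0.333. DESeq2 called 0 as well. At an unadjusted p under 0.05 there were 172 circRNAs (5.73%) by edgeR and 186 by DESeq2. Of the 172, 74 (2.47%) had the higher level at 28d and 35d and 98 (3.27%) the lower, a split that turned to 150 and 21 with clean reads as the depth in place of TMM. Over all circRNAs the log2 fold change had a median of 0.02, and the median size of a log2 fold change was 0.29, below the median standard error of 0.48. Leaving out 28d replicate 2 gave 2 calls, among them circRNA_06656 of EPSTI1, an interferon-induced gene (log2 fold change 1.78, adjusted p = 0.0263, against 0.847 with all libraries, edgeR). The left-out pig had 0 normalized counts of it, where the older pigs reached 59.7. Leaving it out thus removed the lowest older value, and the call followed from that choice.

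The width of the intervals differed with the count. The 95% interval of the fold change lay within 2-fold either way for 891 circRNAs (29.7%) and within 4-fold either way for 2643 (88.1%). Among the 220 circRNAs with a mean of 30 or more normalized counts, 209 (95%) had an interval within 2-fold, and among the 788 with a mean of 10 to 30 it was 534 (67.8%). For the 1140 with a mean of 5 to 10 it was 147 (12.9%), and for the 852 below 5 it was 1 (0.117%). For most circRNAs of low count a 2-fold difference was thus not excluded. The share at an unadjusted p under 0.05 was 15% of the 220 most abundant circRNAs, 7.49%, 4.56% and 3.29% in the successively lower classes.

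**Figure D1:**
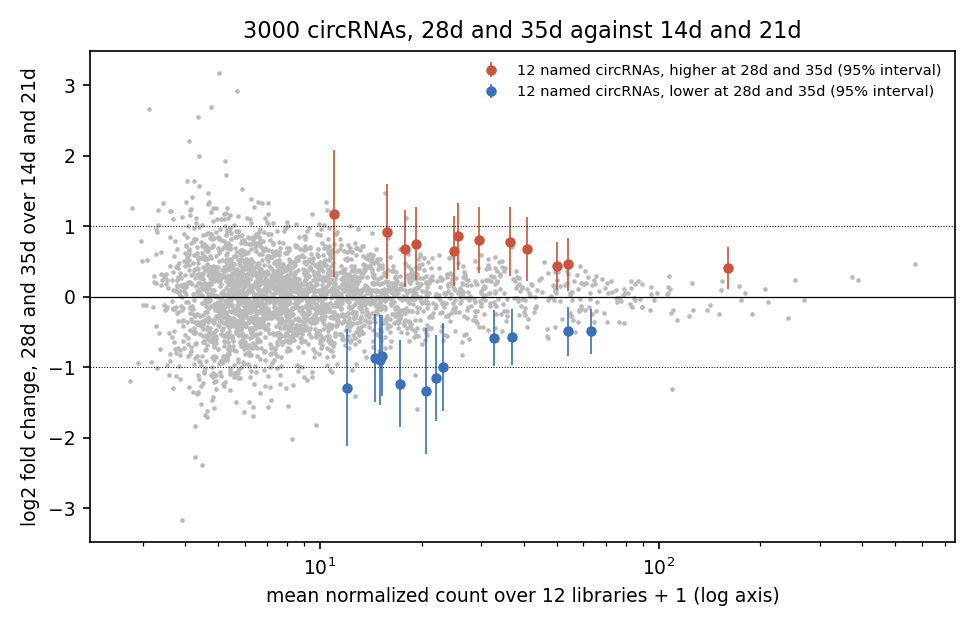
Log2 fold change of each of 3000 circRNAs (28d and 35d over 14d and 21d) against its mean normalized count over the 12 libraries plus 1 (log axis), with the 12 named circRNAs of each direction in colour and their 95% intervals. The scatter narrows with the count, dotted lines mark a 2-fold difference, and none of the points passed the adjusted test.

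The named circRNAs are the 12 in each direction with the smallest p among the 1008 with a mean of at least 10 normalized counts. None was called, so the following are levels and differences, not changes. In the first group, with the higher level at 28d and 35d, stood circRNA_35658 from exons 12 to 13 of NAA15, which encodes the auxiliary subunit of the NatA complex that acetylates protein N termini (chr8:87643220-87644581, minus strand). Its normalized counts at 14d and 21d were 13.4 at the lowest, 17.7 at the median and 21.4 at the highest, and 23.7, 28.9 and 44.4 at 28d and 35d. All 6 older pigs lay above all 6 younger ones. The log2 fold change was 0.86 ± 0.24 (SE, n = 6 and 6) and the adjusted p was 0.470 in edgeR's test.

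Members of the same group with roles in RNA sensing and autophagy overlapped between the ages. circRNA_19169 from exons 11 to 12 of ZNFX1, a helicase that binds double-stranded RNA in antiviral defence (chr17:50931699-50933570, minus strand), ran from 9.40 over a median of 28.2 to 35.5 at 14d and 21d, and from 30.3 over 41.7 to 71.1 at 28d and 35d, with a log2 fold change of 0.78 ± 0.24 (adjusted p = 0.705, edgeR). For circRNA_24935 from exons 13 to 14 of EIF2AK2, the kinase PKR that halts translation on sensing double-stranded RNA, the values were 0, 6.87 and 13.01 against 9.75, 14.3 and 16.5, a log2 fold change of 1.18 ± 0.45 (adjusted p = 0.789, edgeR). In both, the lowest older pigs lay below the highest younger pigs. For circRNA_06528 from exons 7 to 8 of RUBCNL, a partner of beclin 1 in autophagosome maturation, the lowest, median and highest values were 17.5, 30.2 and 49.7 against 22.9, 52.0 and 61.4, a log2 fold change of 0.67 ± 0.22 (adjusted p = 0.742, edgeR). One pig of 28d, replicate 3, was low among the older pigs at 22.9, and 14d replicate 1 was high among the younger at 49.7.

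A pair of circRNAs of this group arose inside genes but not at annotated exon ends. circRNA_29459 lies in PAWR, a gene that promotes apoptosis (chr5:101790862-101795355), and measured 14.8, 21.2 and 26.2 against 20.3, 34.6 and 54.4, with a log2 fold change of 0.81 ± 0.23 (adjusted p = 0.582, edgeR). circRNA_37493 lies in CR1, the gene of complement receptor 1 (chr9:68044952-68045673), and measured 3.74, 8.79 and 19.1 against 11.4, 17.9 and 26.7, with a log2 fold change of 0.92 ± 0.34 (adjusted p = 0.742, edgeR). Both sets overlapped between the ages. The other members were circles of RNF13, an endosomal ubiquitin ligase (log2 fold change 0.75), RPS6KA3, a kinase downstream of ERK (0.68), CFDP1 (0.65), TNS3, a focal adhesion protein (0.46), PPM1B, a serine/threonine phosphatase (0.44), and GRIPAP1, a regulator of endosome recycling (0.40). GRIPAP1 circRNA_38964 was the most abundant of the named circRNAs, with 103, 138 and 166 normalized counts against 129, 190 and 228. PPM1B circRNA_24740 had stage means of 30.7, 53.1, 43.8 and 68.5 from 14d to 35d, so that 28d lay below 21d.

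Among the circRNAs with the lower level at 28d and 35d, the smallest p-values belonged to NCOA7 and NSD2. circRNA_00572 from exons 3 to 4 of NCOA7, a coactivator of nuclear receptors (chr1:37122169-37167150, minus strand), measured 8.68, 21.8 and 43.6 at 14d and 21d and 5.41, 7.99 and 15.2 at 28d and 35d. The groups overlapped through 21d replicate 2, the lowest younger pig, which lay below the 28d replicates 2 and 3. Its log2 fold change was -1.24 ± 0.31 (adjusted p = 0.333, edgeR). circRNA_34504 from exons 2 to 9 of NSD2, a histone H3 lysine 36 methyltransferase (chr8:964857-992003, plus strand), measured 16.5, 29.5 and 42.4 against 4.81, 12.2 and 25.4, a log2 fold change of -1.16 ± 0.30 (adjusted p = 0.333, edgeR). The 3 pigs of 14d were the highest of the 12, with 33.1, 42.4 and 32.4, and the pigs of 21d overlapped those of 28d and 35d.

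Further down the order of p-values, circRNA_38090 from exons 2 to 8 of EZH2, the methyltransferase of polycomb repressive complex 2, measured 15.4, 18.6 and 20.7 against 4.81, 10.2 and 15.8, a log2 fold change of -0.84 ± 0.29 (adjusted p = 0.742, edgeR). Only 28d replicate 2 reached the range of the younger pigs. For circRNA_02314, which is exon 2 of IGF1R, the receptor of insulin-like growth factor 1 (chr1:137638041-137638586), the values were 51.7, 60.8 and 73.5 against 33.6, 43.6 and 61.5, a log2 fold change of -0.49 ± 0.18 (adjusted p = 0.742, edgeR). circRNA_23675 of NPRL3, a subunit of the GATOR1 complex that restrains mTORC1, measured 16.2, 28.6 and 35.5 against 0, 8.05 and 27.9, a log2 fold change of -1.34 ± 0.43 (adjusted p = 0.742, edgeR). Its older pigs were split: 28d replicate 1 was at 0 and the 35d pigs were between 4.97 and 8.66, while 28d replicates 2 and 3 stood at 22.8 and 27.9 within the younger range.

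ATP11B circRNA_10965 was the named circRNA of this direction whose groups did not overlap. It comes from exons 6 to 8 of a gene for a phospholipid flippase (chr13:120778216-120779879) and measured 36.2, 43.1 and 50.7 against 25.0, 28.6 and 35.1, a log2 fold change of -0.58 ± 0.20 (adjusted p = 0.742, edgeR). circRNA_02640 from exons 2 to 4 of DENND4A, a DENN domain exchange factor for Rab proteins, measured 15.5, 26.3 and 52.2 against 7.80, 13.2 and 29.0, a log2 fold change of -0.998 ± 0.31 (adjusted p = 0.705, edgeR), with overlap. The remaining log2 fold changes were -1.29 for TMX1, a thioredoxin-like protein of the endoplasmic reticulum membrane, -0.90 for ENAH, an actin regulator, -0.87 for ARHGEF7, an exchange factor for Rac and Cdc42, -0.59 for AGGF1, an angiogenic factor, and -0.49 for CCT3, a chaperonin subunit. TMX1 circRNA_02977 owed its highest younger value, 37.6, to 21d replicate 1, the next being 18.6.

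**Figure D2:**
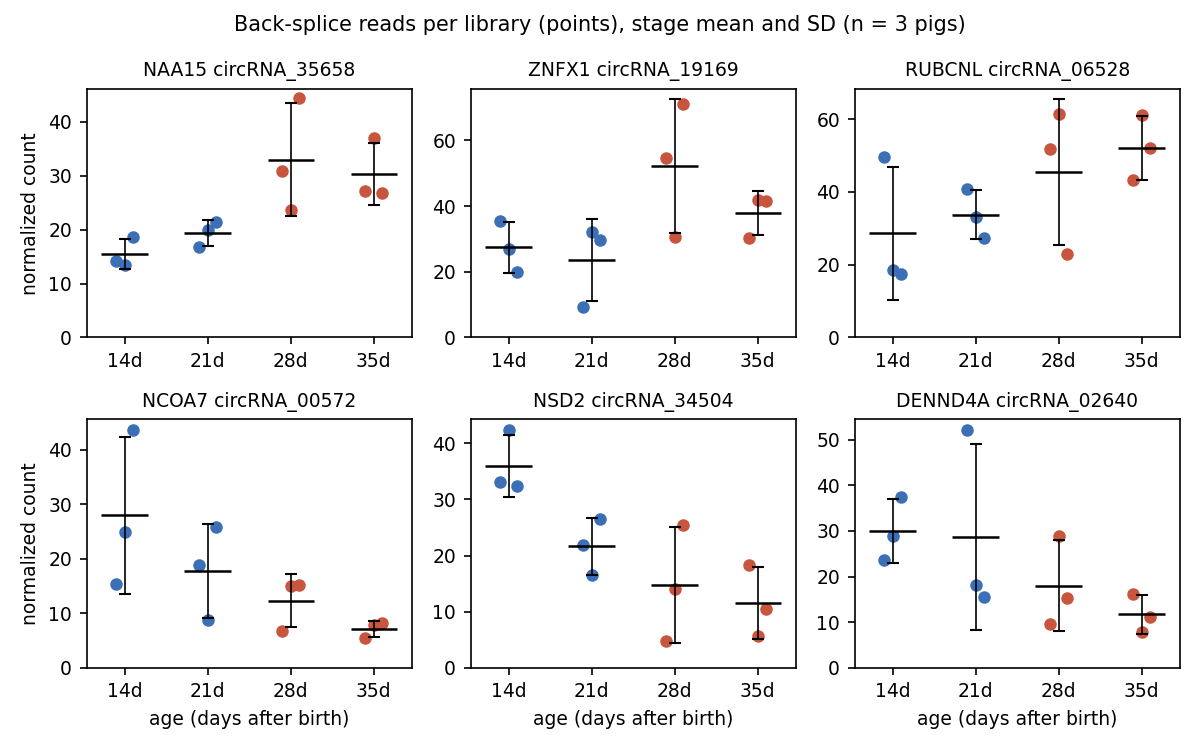
Normalized back-splice reads per library (points, 3 pigs per stage) with the stage mean (horizontal line) and SD (bars) at 14d, 21d (blue), 28d and 35d (red) for 6 of the named circRNAs. NAA15 is the one whose red points all lie above the blue ones, from 23.7 against at most 21.4, and the other 5 overlap.

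Across all 3000 circRNAs, every library of 28d and 35d lay above every library of 14d and 21d for 6 circRNAs (0.2%) and below for 6 (0.2%). Among those above were circRNAs of NAA15, ULK2 (an autophagy kinase), UBR3 and LOC106508499, together with circRNA_09035 inside TOP2B. Those below were circRNAs of MCM6, ATP11B, MBOAT1, GULP1, RNF111 and SON. These circRNAs are named because they are so few, and were chosen after their values were seen. The largest difference with the smallest p among them was that of circRNA_15204 from exons 2 to 7 of MCM6, a subunit of the replicative DNA helicase (chr15:15928996-15936972), which measured 9.61, 10.4 and 16.6 at 14d and 21d and 0, 3.40 and 6.35 at 28d and 35d. Its mean of 7.28 normalized counts placed it below the limit for named circRNAs. The log2 fold change was -2.02 ± 0.53 (adjusted p = 0.333, edgeR).

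Circles of the same host gene gave a range of fold changes. The 7 circRNAs of CCT3 ran from a log2 fold change of -0.56 to 0.52, and circRNA_26742 (exons 5 to 8) was the most abundant with a mean of 72.9 ± 15.1 (SD, n = 6) against 51.5 ± 3.89. NSD2 gave -1.16 for exons 2 to 9, -0.44 for exons 2 to 3 and -0.06 for exons 6 to 9. The differences of EZH2 were -0.84, -1.50 and -1.28 for exons 2 to 8, 4 to 8 and 9 to 10, and -0.17 and 0.19 for exons 2 to 4 and 2 to 3. For NAA15 the circle of exons 12 to 13 had 0.86, while those of exons 2 to 13, 3 to 5 and 3 to 4 had -0.12, -0.57 and 0.20, each with group means below 9 normalized counts. Circles that share a junction end also share sequence, and whether these differences differ from each other was not tested.

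The circRNA that the study took to a reporter assay, circRNA_21767 from exons 8 to 12 of PAPD4, a non-canonical poly(A) polymerase gene (chr2:88358554-88372391), measured 6.26, 8.05 and 12.1 at 14d and 21d and 11.5, 13.6 and 20.3 at 28d and 35d. A single pig of each age overlapped, 21d replicate 2 at 12.1 and 28d replicate 1 at 11.5. Its log2 fold change was 0.75 ± 0.36 (adjusted p = 0.847, edgeR), with a 95% interval from 0.04 to 1.47. The stage means were 8.10, 9.09, 16.2 and 13.3 from 14d to 35d. Outside these stages they were 3.75 and 6.71 at 1d and 7d, and 13.4 and 22.7 at 120d and 180d. The study also reports RT-qPCR of this circRNA over development and a close association with the expression of SIT1.

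The single steps between stages of 3 pigs each gave no calls in edgeR's test either. From 14d to 21d, 0 circRNAs (0%) were called and 118 (3.93%) had an unadjusted p under 0.05. The numbers were 0 (0%) and 102 (3.4%) from 21d to 28d, and 0 (0%) and 94 (3.13%) from 28d to 35d. DESeq2 called 0 in each of these 3 steps. These counts were not compared by a test. In the step that separates the groups, 21d to 28d, the smallest adjusted p, 0.659, was that of circRNA_29459 in PAWR, with 19.8, 17.4 and 14.8 at 21d and 50.0, 54.4 and 20.3 at 28d, a log2 fold change of 1.29 ± 0.33. Leaving out 28d replicate 3, the low pig, gave an adjusted p of 0.0286 (edgeR). Next in this step was CCT3 circRNA_26742, with 91.9, 72.9 and 82.8 at 21d and 47.1, 49.2 and 49.5 at 28d, a log2 fold change of -0.76 ± 0.22 (adjusted p = 0.950, edgeR). In normalized counts the 3 pigs of 28d lay close together and below all of 21d.

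In the 14d to 21d step, circRNA_26651 inside CFAP126 (log2 fold change 0.78) and PPM1B circRNA_24740 (0.79) had the smallest p-values among the higher, and RNF169 circRNA_36571 (-0.84) and PPA2 circRNA_35985 (-0.84) among the lower. In the 28d to 35d step these were circRNA_38940 inside SLC9A7 (1.41) and KCTD9 circRNA_12474 (1.52) on the higher side, and CEP295 circRNA_36888 (-1.06) on the lower. None of these 7 was near the threshold, with adjusted p-values of at least 0.791. Leaving out 28d replicate 1 gave 1 call in the 28d to 35d step, circRNA_38142 of DNM3, a dynamin gene (log2 fold change -2.45, adjusted p = 0.0177, edgeR). The left-out pig had 3.84 normalized counts, the lowest of the 28d and 35d pigs. With all libraries the log2 fold change was -1.93 and not called.

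The widest pair, 35d against 14d, came closest to a call. In edgeR 0 circRNAs (0%) were called and 154 (5.13%) had an unadjusted p under 0.05, whereas DESeq2 called 1. That circRNA was PPM1B circRNA_24740 from exons 4 to 6 (chr3:96249368-96260927), which had 30.8, 35.2 and 26.2 normalized counts at 14d and 61.7, 68.8 and 75.0 at 35d. All 3 pigs of 35d lay above all of 14d, and the log2 fold change was 1.15 ± 0.25 with an adjusted p of 0.0538 in edgeR and 0.0269 in DESeq2. NCOA7 circRNA_00572 had 15.4, 24.8 and 43.6 against 5.41, 7.80 and 8.17, a log2 fold change of -1.92 ± 0.44 (adjusted p = 0.0796, edgeR). Without 14d replicate 1, the lowest pig of 14d at 15.4, its adjusted p was 0.0354 (edgeR). For NSD2 circRNA_34504 the log2 fold change was -1.70 ± 0.42 (adjusted p = 0.169, edgeR) and for RNF13 circRNA_10613 it was 1.38 ± 0.38 (0.326).

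To set the count of 0 beside the weeks before and the months after, 2 further comparisons of 6 against 6 pigs were taken from the same fit after that result was known. They share libraries with the main comparison. 14d and 21d against 1d and 7d gave 46 calls (1.53%), 43 with the higher and 3 with the lower level at 14d and 21d, and 33 calls in DESeq2. Depth differed here, with 16273 to 25283 back-splice reads per library at 1d and 7d against 29718 to 54475 at 14d and 21d. Values of 1 read do not occur and can stand as 0, and what part depth had in these calls was not tested. 120d and 180d against 28d and 35d gave 17 calls (0.567%), 5 higher and 12 lower at the older age, and 34 in DESeq2. Over 15 alternative settings the count of the first comparison ran from 20 to 762, the lowest without the libraries below 0.96 valid bases. That filter left only replicate 1 of 35d, 120d and 180d, so its count is not given for the second comparison. In its other settings the second comparison ran from 10 to 101. The highest counts were with clean reads as the depth (762 higher and 0 lower, and 97 higher and 4 lower). Without single libraries of the 4 stages the counts were 29 to 65 and 10 to 25, the lowest being those that left out 21d replicate 2 in the first comparison and 28d replicate 2 or 35d replicate 1 in the second. Whether the counts of calls differ between the comparisons was not tested.

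Summed per host gene, the counts gave 0 calls of 1670 genes (0%), here without a fold limit, and DESeq2 gave 0 too. At an unadjusted p under 0.05 there were 117 host genes (7.01%) by edgeR and 125 by DESeq2. Of the 117, 44 (2.63%) were higher at 28d and 35d and 73 (4.37%) lower, and 108 and 14 with clean reads as the depth. The smallest adjusted p, 0.201, was shared by MCM6 and NCOA7. The summed circRNAs of MCM6 measured 25.0, 36.7 and 46.7 at 14d and 21d against 6.71, 18.1 and 26.4 at 28d and 35d, a log2 fold change of -1.02 ± 0.25. Of the older pigs, only 28d replicate 2 at 26.4 reached the younger range. Without that pig the adjusted p was 0.0125 in edgeR (log2 fold change -1.30), and the same setting called EPSTI1 (1.38, adjusted p = 0.0125). The left-out pig had 6.16 normalized counts of EPSTI1, the lowest older value.

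Cell cycle and DNA replication genes had uneven signs under TMM scaling. Of 77 genes in the list 28 were hosts, with 48 circRNAs, and 24 of the 28 had the lower and 4 the higher fitted level at 28d and 35d. Of all 1670 host genes 822 were lower and 848 higher. The median log2 fold change was -0.36 for the list and 0.01 for all host genes. None passed the adjusted test, and 7 had an unadjusted p under 0.05, all of them lower. These were TPX2, a spindle assembly factor (log2 fold change -1.05), MCM6 (-1.02), CIT, the citron kinase of cytokinesis (-0.76), BUB1B, a spindle checkpoint kinase (-0.68), MELK, a mitotic kinase (-0.58), DTL, a ubiquitin ligase adaptor in DNA replication (-0.55), and SMC4, a condensin subunit (-0.48). ORC4, RFC1 and PRIM1, which act in DNA replication, were on the higher side with values of 0.45, 0.17 and 0.36. The summed level of the list ran from 465 to 776 normalized counts in the younger pigs and from 348 to 627 in the older, so the groups overlapped.

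The counts of this list depended on scale and on single pigs. Its median lay below that of all host genes in both scalings (-0.36 against 0.01 with TMM, -0.16 against 0.22 with clean reads as the depth). With clean reads, 456 of all 1670 host genes were lower, against 822 with TMM. In that scaling the count of lower hosts in the list was 17 of 28, and 1 of the lower hosts had an unadjusted p under 0.05. Without the 3 libraries below 0.96 valid bases it was 23 of 28 with a median of -0.30, in a fit where replicate 1 alone stood for 35d. Leaving out 1 library at a time gave 20 to 25 lower hosts and medians from -0.49 to -0.18, the weakest on leaving out 21d replicate 1 (-0.18) or 28d replicate 1 (-0.22). The 7 lower hosts under an unadjusted p of 0.05 became 1 in each of these fits, 2 without 14d replicate 2 and 4 without 35d replicate 2. Within the groups the list was not flat: its median was 0.30 from 14d to 21d, -0.33 from 21d to 28d and -0.26 from 28d to 35d. In libraries outside the contrast, though in the same fit, 120d and 180d were set against 1d and 7d. There 27 of the 28 hosts were lower at the older age, against 678 of all 1670 host genes. The medians were -1.55 for the list and 0.18 for all host genes.

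**Figure D3:**
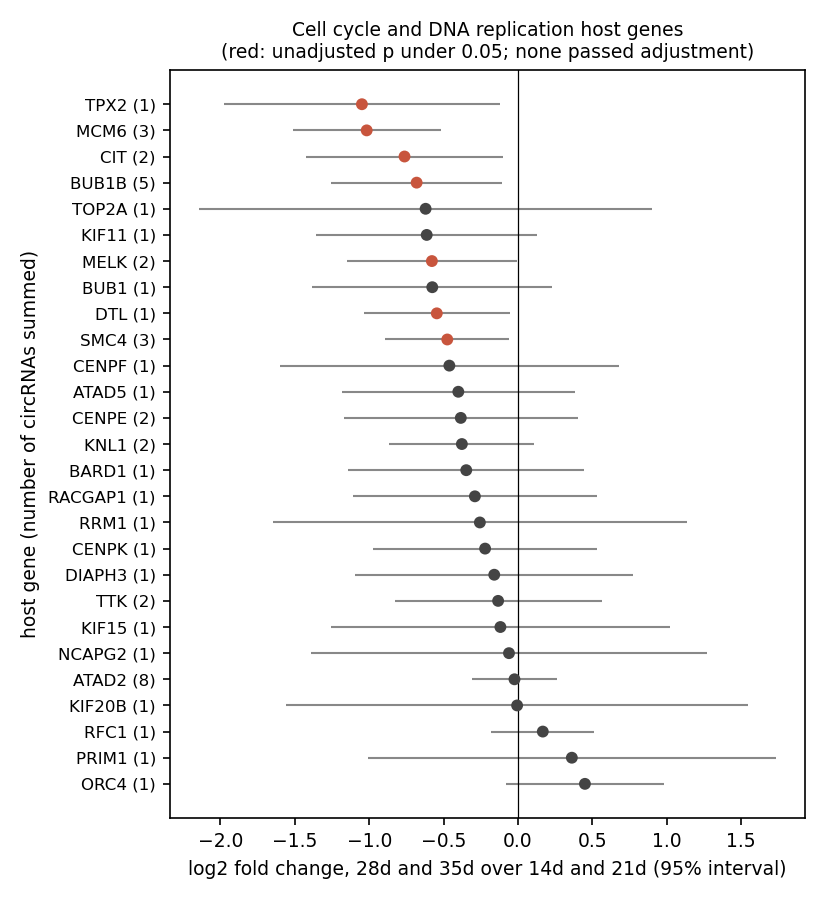
Log2 fold change (28d and 35d over 14d and 21d) with 95% interval for the summed circRNAs of 27 cell cycle and DNA replication host genes. Under TMM scaling 24 points lie left of 0, the 7 in red have an unadjusted p under 0.05, and none passed the adjusted test. With clean reads as the depth 17 of the 28 hosts were lower, where 456 of all 1670 host genes were.

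Host genes that mark lymphocytes, which are few in the table, had mostly higher fitted levels at 28d and 35d. The 5 B and plasma cell hosts had a median log2 fold change of 0.44, 4 of them higher, led by RALGPS2 (0.69, unadjusted p = 0.0276, edgeR), the surface receptor CD22 (0.49) and the nuclear factor AFF3 (0.44). These 3 had the smallest p of the list, and the lower host was not among them. Of all 1670 host genes 848 were higher, and 1214 with clean reads as the depth, where all 5 were. Only RALGPS2 had an unadjusted p under 0.05. Without 14d replicate 2, or without 35d replicate 2, 0 of the 5 hosts did. The summed level of the 5 hosts was 148 to 222 normalized counts in the younger pigs and 135 to 307 in the older. By step, the median was 0.60 from 14d to 21d, -0.11 from 21d to 28d, where 3 of the 5 were lower, and 0.46 from 28d to 35d. All 3 T and NK cell hosts were higher, the nuclear factor TOX by 0.69, the adhesion receptor CD96 by 0.49 and the transcription factor LEF1 by 0.45 on the log2 scale, none with an unadjusted p under 0.05, and their summed level was 13.8 to 39.9 against 34.7 to 57.9. No list of cell type markers held a called host. Of the germinal centre list EZH2 (5 circRNAs, -0.59, unadjusted p = 0.00216) and MEF2C (0.14) were measured. CD3 genes were not among the hosts, and what part cell composition had in any difference was not tested.

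Both erythroid hosts were lower at 28d and 35d. TFRC, the transferrin receptor through which red blood cell precursors take up iron, measured 25.8, 34.0 and 66.4 over its 3 circRNAs against 3.66, 15.04 and 37.4, a log2 fold change of -1.29 ± 0.41 (adjusted p = 0.473, edgeR), with overlap. EPB41, a red cell membrane skeleton gene, had -0.25 ± 0.16. TFRC is also used by other dividing cells. Of the macrophage, monocyte and granulocyte list CTSS had 0.41, SLC8A1 -0.03 and ADGRE1 -0.71, and the stromal list held FLT1 (0.32) and DOCK1 (0.24), none with an unadjusted p under 0.05. IGF2BP3, the single stem and progenitor host, had 0.33.

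Genes of interferon and innate sensing had 8 hosts, 6 higher and 2 lower, with a median of 0.48 that was 0.27 without 28d replicate 1. EIF2AK2 led them: its 2 circRNAs together measured 4.15, 13.03 and 21.5 against 18.4, 23.99 and 37.4, a log2 fold change of 1.03 ± 0.32 (adjusted p = 0.401, edgeR), with 1 younger pig, 21d replicate 2, inside the older range. DDX58, the RNA sensor RIG-I, had 1.06 ± 0.63, and HERC6 0.44 ± 0.26. These 3 hosts had the smallest p of the list, and the 2 lower hosts were not among them. With TMM 848 of all 1670 host genes were higher in this contrast, and with clean reads as the depth 1214. The list had 6 higher in both scalings. The DDX58 value rested on 28d replicate 3, with 25.8 normalized counts where the next older pig had 6.71. By step, 7 of the 8 hosts were higher from 21d to 28d (median 0.39) and 7 of 8 lower from 28d to 35d (median -0.24). Of all 1670 host genes, 795 were higher in the former step and 820 lower in the latter.

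Among the larger lists, the signs of chromatin and splicing genes followed the scaling. Of 50 chromatin regulators with 165 circRNAs, 24 were higher and 26 lower, with a median of -0.02, but 41 higher and 9 lower with clean reads as the depth. KMT2E, a chromatin reader related to histone methyltransferases, measured 51.8, 65.9 and 84.3 over 8 circRNAs against 79.2, 85.4 and 93.0, a log2 fold change of 0.38 ± 0.15 (adjusted p = 0.595, edgeR), and NSD2 summed over 3 circRNAs had -0.64 ± 0.18 (adjusted p = 0.401). Of 21 genes of circRNA formation and RNA splicing, 10 were higher and 11 lower (14 and 7 with clean reads as the depth), and 2 of the lower ones had an unadjusted p under 0.05, among them RBM33 (-0.50). Of 32 host genes of circRNAs that are widely conserved among mammals, 24 were lower and 8 higher, with a median of -0.17, against 15 lower and 17 higher and a median of 0.05 with clean reads as the depth. PICALM, a clathrin adaptor gene and the most abundant of these named hosts, measured 527, 641 and 759 over 10 circRNAs against 492, 521 and 570, a log2 fold change of -0.30 ± 0.10 (adjusted p = 0.467, edgeR). With clean reads as the depth the medians of the chromatin and splicing lists were 0.21 and 0.19, near the 0.22 of all host genes. The widely conserved list lay below all host genes in both scalings. Its medians were -0.17 against 0.01 with TMM and 0.05 against 0.22 with clean reads.

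The stages outside the contrast give a further view of the named circRNAs. Their libraries were part of the same fit, where they entered the scaling and the estimate of the spread. In the 12 libraries of 1d, 7d, 120d and 180d, all 12 circRNAs named as higher at 28d and 35d had the higher mean at 120d and 180d, and all 12 named as lower had the lower mean there. Of the 74 circRNAs with an unadjusted p under 0.05 and the higher level at 28d and 35d, 66 (89.2%) were higher in those older libraries, against 59.4% of all 3000. Of the 98 on the lower side, 77 (78.6%) were lower, against 40.6% of all. Among the 1008 circRNAs with a mean of at least 10, the figures were 40 of 41 (97.6%) against 63.5%, and 41 of 51 (80.4%) against 36.5%. These shares are a description without a test.

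Single courses differed in shape. RUBCNL circRNA_06528 had stage means of 15.2 and 12.6 at 1d and 7d, 28.6, 33.7, 45.4 and 52.1 from 14d to 35d, and 57.0 and 72.0 at 120d and 180d. NAA15 circRNA_35658 stood between 15.4 and 19.4 at the first 4 stages and between 30.2 and 33.6 at the last 4. NSD2 circRNA_34504 had 28.9 and 31.1, then 36.0, 21.7, 14.7 and 11.5, then 7.40 and 3.76, and EZH2 circRNA_38090 ran from 27.7 and 33.7 over 18.3, 18.4, 11.5 and 8.95 to 8.10 and 4.23. NCOA7 circRNA_00572 was lowest at 35d, with 7.13, and stood at 13.4 and 16.8 at 120d and 180d. No step between neighbouring stages from 14d to 35d passed the test.

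**Figure D4:**
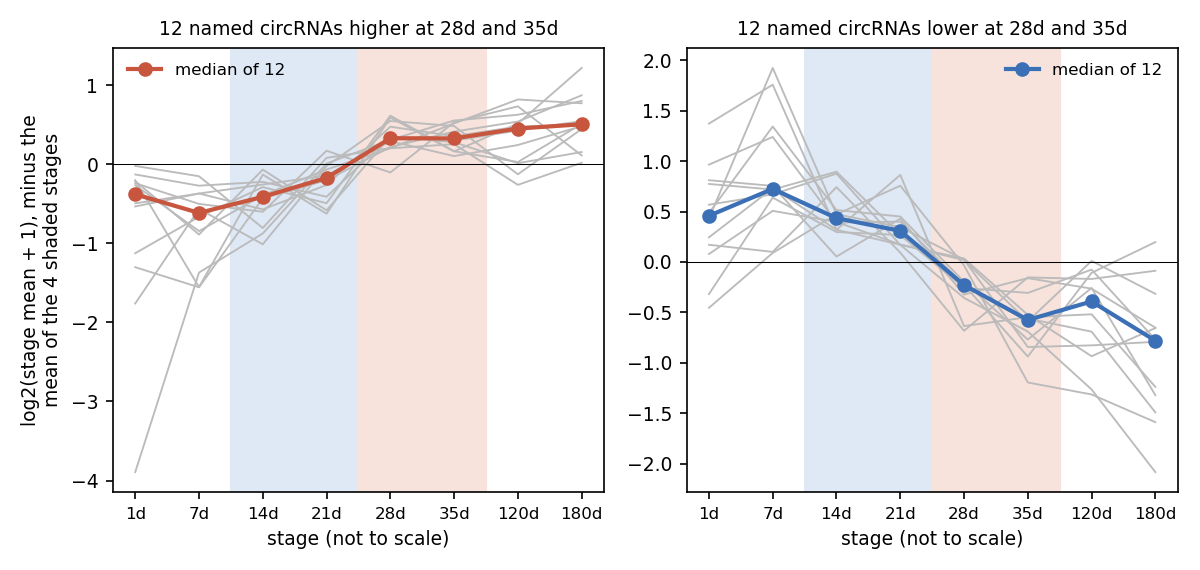
Log2 of the stage mean plus 1, relative to the mean of the 4 compared stages, over the 8 stages (spaced evenly, not to scale) for the 12 named circRNAs of each direction (grey) and their median (colour), with 14d and 21d shaded blue and 28d and 35d red. The step between the shaded bands follows from how the circRNAs were chosen. The levels at 1d, 7d, 120d and 180d were outside that contrast, though these libraries shared its fit for scaling and spread.

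The libraries as wholes differed little between the ages. Back-splice reads of the table, scaled to the clean reads of the library (RPM), averaged 355 ± 78.7 (SD, n = 6) at 14d and 21d and 412 ± 98.3 at 28d and 35d, a ratio of 1.16 whose meaning depends on whether linear RNA had been digested, with ranges of 280 to 477 and 265 to 524 that overlapped (exact two-sided permutation test, p = 0.281, adjusted over 3 library measures 0.422). The number of circRNAs with reads averaged 2807 ± 87.2 and 2840 ± 98.8 (exact permutation p = 0.532, adjusted 0.532). Across circRNAs, the log2 abundances of 2 libraries correlated with a mean r of 0.707 within an age group and 0.699 between the groups. That difference of 0.00796 had a one-sided exact permutation p of 0.0411 and 0.123 after adjustment, and was examined after the other results were seen.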

How the data were processed

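The deposited table, made by the authors, holds raw counts of reads across back-splice junctions for 3000 circRNAs in 24 libraries. Per the methods of the study, trimmed reads were aligned to Sscrofa11.1 with BWA and circRNAs were called with CIRI2, and the labels also name FastQC, cutadapt and TopHat2. The rule that chose the 3000 circRNAs is not given in the sources used here, and the labels and the methods name different extraction and library kits, with RNase R digestion in the methods alone. Since the table is part of each library, the clean reads listed by the study served as an alternative depth. Counts of 1 do not occur, so 0 can stand for a single read.

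Counts were fitted with edgeR 4.0.16 (TMM, robust glmQLFit, glmQLFTest, R 4.3.3), with a coefficient per stage over all 24 libraries and no covariate or filter. The contrast was the mean of 28d and 35d minus the mean of 14d and 21d. P-values were two-sided and adjusted by Benjamini-Hochberg over all features. A call needed an adjusted p under 0.05 and, for circRNAs, a log2 fold change of at least 1 in size. DESeq2 1.42.0 (Wald test) was the second tool. Normalized counts are TMM-scaled counts, computed separately for circRNAs and host genes. The biological coefficient of variation was 0.300. Library measures were compared over 924 splits (smallest p 0.00216). Scripts were tested on simulated data. Nothing in the labels says how animals were related. The p-values of edgeR and DESeq2 rest on the spread between pigs within stages, estimated over all 24 libraries. Those of the library measures rest on the splits.

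Named were the 12 circRNAs per direction with the smallest p and a mean of at least 10, the 2 per step and direction, the 3 hosts per list with the smallest p, and the circRNA of the reporter assay. Members and lists were chosen with earlier results of these data known. Host genes came from RefSeq exon ends on Sscrofa11.1. Alternatives covered scaling, tool, filterByExpr, the replicate block, covariates (valid bases, GC content), library subsets and leaving out each library. A few named items are not reported here, also in the plot of cell cycle hosts.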

Additional observations from a re-analysis of the deposited data

Results flagged for a closer look

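In 114 groups of 6 libraries (the 2 ages for each named circRNA, host gene and library measure), 4 held a library far from the other 5 by Dixon's ratio of the gap to the range. Chance flags about 1 in 20 groups. In 3 of them the library was 21d replicate 1: TMX1 circRNA_02977 with 37.6 normalized counts where the next was 18.6 (ratio 0.657), the summed circRNAs of CIT with 35.3 where the next was 20.7 (0.781), and those of WDR33 with 52.4 where the next was 36.4 (0.645). The fourth was DDX58 in 28d replicate 3, with 25.8 where the next was 6.71 (0.862). Without 21d replicate 1 the median of the cell cycle list, to which CIT belongs, was -0.18 in place of -0.36. What set these libraries apart was not tested.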

How the results depend on the processing

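The count of 0 called circRNAs between 28d and 35d and 14d and 21d stood in 23 of 24 alternatives, and leaving out single libraries gave 0 to 2 calls. For host genes it stood in 22 of 23, with 0 to 2 calls on leaving out a library. In both, the exception was the fit without 28d replicate 2. The alternatives include the fit without the libraries below 0.96 valid bases, where replicate 1 alone stood for 35d. The counts at an unadjusted p under 0.05 ran from 114 to 204 circRNAs and from 70 to 137 host genes. The step from 14d to 21d gave 0 calls in all 16 alternatives. Leaving out single libraries gave 0 to 1 calls from 21d to 28d (1 without 28d replicate 3), 0 to 1 from 28d to 35d (1 without 28d replicate 1) and 0 to 1 for 35d against 14d (1 without 14d replicate 1). The last comparison gave 1 call with clean reads as the depth, 2 with table totals, 1 with DESeq2 and 1 with filterByExpr, PPM1B in each and NCOA7 beside it with table totals. For the 25 named circRNAs 575 of 575 alternative values kept the direction and none was called, the lowest adjusted p being 0.0679. All but the circRNA of the reporter assay were chosen by their p in this same contrast, and the alternatives reuse its libraries. The kept directions therefore follow largely from that choice and are no separate support.

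The replicate number as a block gave 0 calls for circRNAs and host genes between 28d and 35d and 14d and 21d, and 0 in the single steps and in 35d against 14d. It gave 45 calls for 14d and 21d against 1d and 7d (46 without it) and 16 for 120d and 180d against 28d and 35d (17 without it). Same-numbered libraries did not deviate together (correlations from -0.081 to 0.0996, 18 pairs, 0 above 0.1), so the numbers were not taken as pairs. With the block, permuted within numbers, the difference in RPM of clean reads was 57.7 (p = 0.278, exact permutation test) and that in circRNAs with reads 33.5 (p = 0.398).

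The number of circRNAs with reads differed by 33.5, and by -4.50 once every library was thinned to the lowest total, so its sign followed the depth (exact permutation p = 0.684). Over the alternatives the exact permutation p ran from 0.102 to 0.516 for RPM and from 0.167 to 0.900 for the number with reads. With clean reads as the depth, circRNAs had a median log2 fold change of 0.23 in place of 0.02. Below 10 normalized counts few intervals exclude a 2-fold change.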
